A study of Homo sapiens with 8 samples.

Results

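Protein phosphatase 6 (PP6) is a serine/threonine phosphatase complex, and its 7 subunit genes were described here together with the genes of its 3 closest catalytic relatives in KYSE850 cells after silencing of KHSRP. The subunits were the catalytic PPP6C, the regulatory PPP6R1, PPP6R2 and PPP6R3, and the ankyrin repeat subunits ANKRD28, ANKRD44 and ANKRD52, and the relatives were PPP2CA, PPP2CB and PPP4C. Probes were taken for these 10 genes where the RefSeq accession printed in the scanner file carried the gene's symbol. Of the 20249 genes with a probe, 9 belonged to this family, with 11 probes, and 7 of them had at least 1 probe bright enough to be tested, with 8 probes in all. PPP4C had no probe joined in this way and was not analysed here. The family was selected on the fall of PPP6C between the siRNA groups, so that the PPP6C values are a description without a test, whereas the values of the other members were not used in the choice.

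PP6 removes phosphate from serine and threonine residues. Its catalytic subunit binds a regulatory subunit of the SAPS domain family, and ankyrin repeat proteins join the resulting pair. It is best known for switching off Aurora A when that kinase is bound to its activator TPX2 on the mitotic spindle, and for roles in chromosome condensation, DNA repair and inflammatory signalling. Its catalytic relatives belong to PP2A, a major phosphatase of most cells, which uses PPP2CA or PPP2CB, and to PP4, which uses PPP4C.

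KYSE850 is an established line from an esophageal squamous cell carcinoma (ESCC). The labels divide the 8 arrays into 4 of cells transfected with a control siRNA and 4 of cells whose siRNA targeted KHSRP, an RNA-binding protein that acts in microRNA maturation, splicing and mRNA decay. All cells were of the same line and the labels name no other agent or allele. They give neither the KHSRP siRNA used for each array nor whether the arrays of a group came from separate cultures, so that p-values measure the spread between these samples, which may be technical.

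A level is the log2 signal of a probe relative to the 75th percentile of its array, and a probe was called when its adjusted p in limma was below 0.05. Between 45.1% and 49.4% of the 42405 probes were well above background on an array, no spot was saturated, and each of the 2 slides held arrays 1 and 2 or arrays 3 and 4 of both groups. At the brighter KHSRP probe (A_23_P16157), the levels were 6.03, 5.81, 6.39 and 6.08 on control arrays 1 to 4 and 2.52, 2.58, 2.88 and 2.85 on KHSRP siRNA arrays 1 to 4, a log2 difference of -3.37 (SE 0.16, limma adjusted p = 5.95e-05). A dimmer KHSRP probe was well above background on the control arrays only and so entered testing through them. Set against the dimmest detected probe of each array it was 5.83-fold lower, which is not a strict lower limit. Its call (limma adjusted p = 0.0147) is given as a description and is not counted as support for the knockdown. That call was lost with normexp background correction (log2 difference -0.54, adjusted p = 0.0935), with the scanner file numbers as a block (adjusted p = 0.0724) and without control array 1 (adjusted p = 0.0549). All 6 squamous markers examined (KRT5, KRT14, KRT6A, TP63, DSG3 and SFN) were well above background on all 8 arrays, whereas the endothelial PECAM1 was so on none. The leukocyte gene PTPRC reached this level on at most 4 arrays at any of its 5 probes, and the fibroblast gene COL1A1 and the muscle gene DES on all 8. None of the tested marker genes was called between the siRNA groups, but with the arrays paired as described further on DSG3, a desmosomal cadherin, was called lower (log2 difference -0.74, limma adjusted p = 0.00432). That fit called 30.1% of all tested probes, and the part of DSG3 in the results for the family was not tested. The squamous markers did, however, divide the arrays across the groups. KRT5 had a level of 5.84 on control arrays 1 and 3 and of 5.92 and 5.98 on KHSRP siRNA arrays 1 and 4, but of 4.30 and 3.11 on control arrays 2 and 4 and of 4.46 and 2.92 on KHSRP siRNA arrays 2 and 3.

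PPP6C mRNA was lower with KHSRP siRNA at both of its probes. At the brighter probe (A_23_P355385), control arrays 1 to 4 had levels of 3.90, 3.65, 3.96 and 3.53, and KHSRP siRNA arrays 1 to 4 had 1.81, 1.37, 1.62 and 1.87. The lowest control array lay above the highest KHSRP siRNA array. The group means were 3.76 ± 0.21 and 1.67 ± 0.22 (SD, n = 4 each), a log2 difference of -2.10, which left 23.4% of the control level. At the dimmer probe (A_24_P81298), which carries the accession of another PPP6C transcript, the levels were -0.94, -1.13, -1.05 and -0.81 with control siRNA and -3.81, -4.07, -3.99 and -3.97 with KHSRP siRNA. This probe was well above background on all 4 control arrays and on no KHSRP siRNA array, so that its KHSRP siRNA level is an upper limit. Set against the dimmest detected probe of each array, its signal was 7.58-fold lower with KHSRP siRNA. Some probes above that level were not well above background, so this value is not a strict lower limit. The measured log2 difference of -2.98 shrank to -0.72 with normexp background correction.

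As a description of the value that chose the family, the brighter PPP6C probe stood at place 20 from the largest fall over 18761 tested probes. Its log2 difference was -2.19 on slide 1 alone and -2.01 on slide 2 alone. No place or slide value is given for the dimmer probe, whose KHSRP siRNA levels were at background. Both probes were printed as 2 spots per array. At the brighter probe the spots of an array differed with an SD of 0.01 to 0.16 on the log2 scale, within the SD of 0.21 between arrays of a group. Fewer PPP6C transcripts per cell and fewer cells with the transcript cannot be told apart in such bulk RNA.

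**Figure D1:**
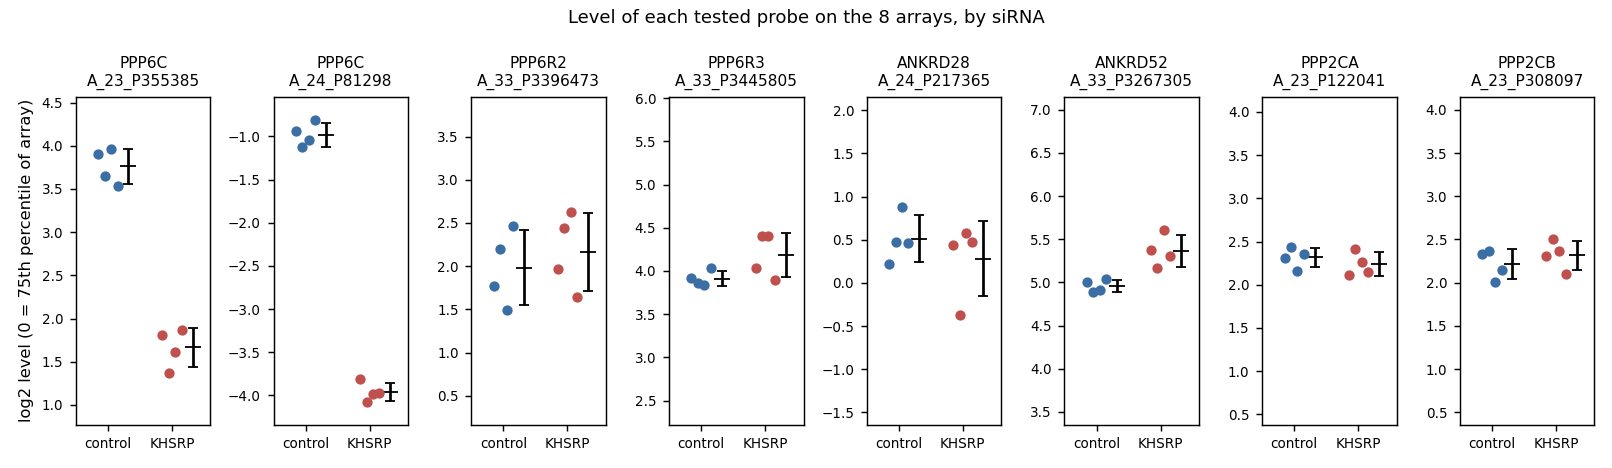
Log2 level (0 is the 75th percentile of the array) of the 8 tested probes of PP6 subunits and related catalytic subunits on each array, with blue points for control siRNA arrays 1 to 4 and red points for KHSRP siRNA arrays 1 to 4 from left to right, and black bars for the mean ± SD (n = 4). All panels span the same log2 range around their own centre. The groups are separated widely at both PPP6C probes, narrowly at ANKRD52, and overlap at the other 5 probes.

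The regulatory subunits bind PPP6C and direct the enzyme to its substrates, and none of them was called. For PPP6R3, control arrays 1 to 4 had levels of 3.91, 3.86, 3.84 and 4.03, and KHSRP siRNA arrays 1 to 4 had 4.03, 4.40, 4.40 and 3.90. KHSRP siRNA arrays 2 and 3 were above all controls, whereas arrays 1 and 4 lay within or close to the control range. The log2 difference was 0.27 (SE 0.14, 95% interval -0.06 to 0.60, limma adjusted p = 0.360), an interval from 96.1% to 152% of the control level.

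For PPP6R2, the levels at the tested probe were 1.77, 2.20, 1.5 and 2.47 with control siRNA and 1.96, 2.45, 2.63 and 1.64 with KHSRP siRNA. The groups overlapped almost entirely, and the log2 difference was 0.19 (SE 0.28, 95% interval -0.45 to 0.82, limma adjusted p = 0.812). Leaving out 1 array moved it between 0.02, without control array 3, and 0.36, without KHSRP siRNA array 4. PPP6R2 was the most variable of the family within groups, with an SD of 0.44 that only 20.7% of tested probes exceeded. Its high arrays were control 2 and 4 and KHSRP siRNA 2 and 3, which were the arrays with low KRT5, and the part of this division in the PPP6R2 result was not tested beyond the pairs described further on. Its second probe was well above background on 2 arrays of each group and was not tested. PPP6R1 was not well above background on any array, with levels from -5.74 to -3.57, so that no difference could be read for it.

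The ankyrin repeat subunits, which join the complex through its regulatory subunits, gave 2 testable probes. ANKRD52 had levels of 5.0, 4.89, 4.91 and 5.04 on control arrays 1 to 4 and of 5.38, 5.17, 5.61 and 5.30 on KHSRP siRNA arrays 1 to 4. Every KHSRP siRNA array was above every control array. The log2 difference of 0.41 (SE 0.12, 95% interval 0.13 to 0.68) corresponded to 132% of the control level, but the limma adjusted p of 0.10 left it uncalled. With the arrays blocked by the numbers of the deposited expression matrix, described further on, the adjusted p was 0.0126 and ANKRD52 was called. That fit called 30.1% of all tested probes.

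For ANKRD28, the levels were 0.22, 0.48, 0.88 and 0.47 with control siRNA and 0.44, -0.37, 0.58 and 0.47 with KHSRP siRNA. KHSRP siRNA array 2 lay below all other arrays, and the remaining 3 lay within the control range. The log2 difference of -0.23 (SE 0.23, 95% interval -0.76 to 0.30, limma adjusted p = 0.685) became -0.02 without that array. ANKRD44 was well above background on 1 array of each group and was not tested.

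The catalytic subunits of PP2A showed small differences. PPP2CA, measured by 10 spots per array, had levels of 2.31, 2.44, 2.16 and 2.36 with control siRNA and of 2.12, 2.42, 2.26 and 2.14 with KHSRP siRNA. The groups overlapped, and the log2 difference was -0.08 (SE 0.12, 95% interval -0.35 to 0.19, limma adjusted p = 0.802), an interval that runs from 78.6% to 114% of the control level. PPP2CB had levels of 2.34, 2.37, 2.01 and 2.14 with control siRNA and of 2.31, 2.50, 2.37 and 2.09 with KHSRP siRNA. These groups overlapped as well, with a log2 difference of 0.10 (SE 0.14, 95% interval -0.20 to 0.41, limma adjusted p = 0.772). Both intervals run from below to above no difference, and neither gene was called.

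Of the 6 tested probes of members other than PPP6C, 0 were called by limma, against 5.54% of all tested probes (1039 of 18761, 360 higher and 679 lower). Only ANKRD52 among them had an unadjusted limma p below 0.05, and the per-gene test named in the study's methods also called 0 of the 6 after adjustment. The groups did not overlap at 1 of the 6 probes, against 14.8% of all tested probes. The median log2 difference of the 6 was 0.14, with 4 higher and 2 lower, beside a median of 0.01 over all tested probes.

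**Figure D2:**
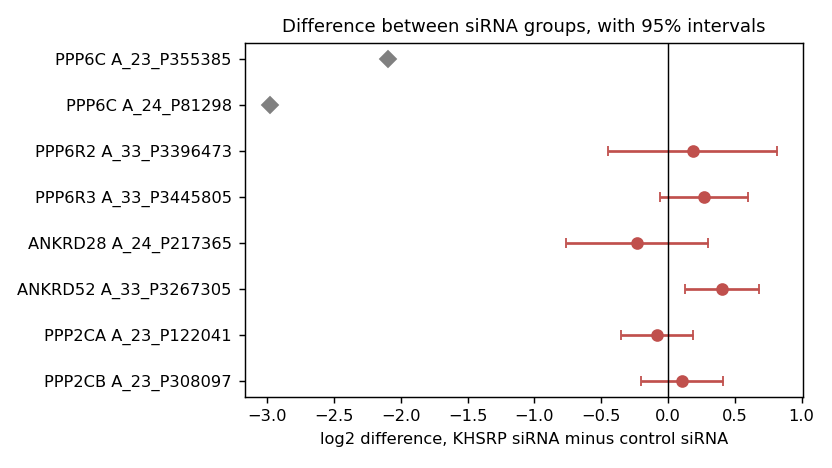
Log2 difference of KHSRP siRNA minus control siRNA (x axis) for the 8 tested probes. Grey diamonds are the PPP6C probes, given as -2.10 and -2.98 without an interval because their fall chose the family, and red points with bars are the other members with 95% intervals from limma. The interval of ANKRD52 alone, 0.13 to 0.68, lies to one side of 0.

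The arrays were also compared in pairs, which the sample titles do not name. In the deposited expression matrix the columns of KHSRP siRNA arrays 3 and 4 held the values of the scanner files numbered 4 and 3. Under the matrix numbers the deviations of a control array and its KHSRP siRNA partner from their group means correlated over probes in all 4 pairs. Each control array also correlated, at 0.38 to 0.42, with a KHSRP siRNA array that was not its partner. For control array 2 the values were 0.433 with its partner and 0.424 with KHSRP siRNA array 3. The correlations thus do not establish the pairs, and calls with the pair as a block are a description. Within these pairs PPP6R2 differed by 0.14 to 0.24 on the log2 scale, higher with KHSRP siRNA in 4 of 4 pairs, a far narrower range than its 8 levels. ANKRD52 was higher by 0.28 to 0.57 and PPP6R3 by 0.06 to 0.54, each in 4 of 4 pairs. For ANKRD52, whose groups did not overlap, the direction would be the same under any pairing. PPP2CA was lower in 4 of 4 pairs, by -0.19 to -0.02, PPP2CB was higher in 3 of 4, and ANKRD28 was higher in 2 and lower in 2. The share of all tested probes with the same direction in every pair was not computed, so these counts are a description. With the pair as a block, limma gave adjusted p values of 0.0126 for ANKRD52, 0.0681 for PPP6R2 and 0.0918 for PPP6R3. That fit called 30.1% of all tested probes, so that 1 call among 6 members stood below the share of the array.

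**Figure D3:**
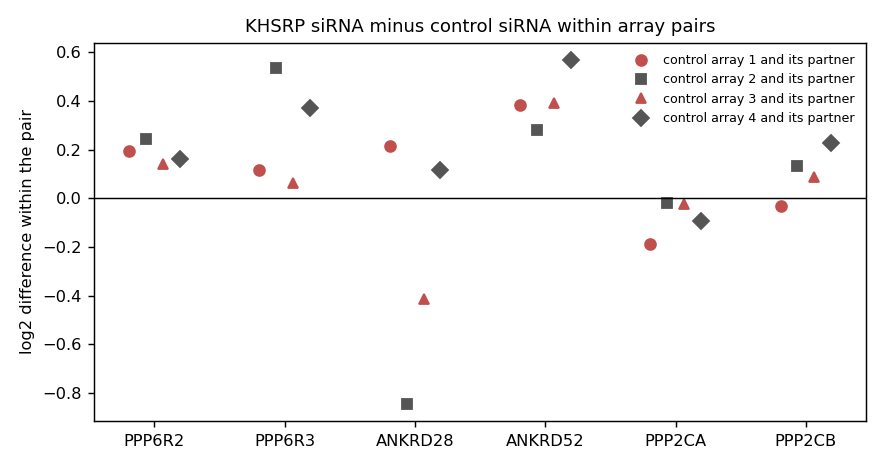
Log2 difference between each KHSRP siRNA array and the control array of the same number in the deposited matrix (y axis) for the 6 tested members other than PPP6C, with 1 symbol per pair. All 4 pairs are above 0 for PPP6R2, PPP6R3 and ANKRD52 and below 0 for PPP2CA, whereas ANKRD28 runs from -0.84 to 0.22. For ANKRD52 the direction would be the same under any pairing, since its groups do not overlap.

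None of the 6 tested probes of members other than PPP6C was called between slides. Their level between slides, fitted beside the siRNA, had limma adjusted p values from 0.505 to 0.993. None of these probes had an unadjusted p below 0.05. Over the whole array limma called 0 probes for the slide, with 2142 at an unadjusted p below 0.05. For the siRNA difference compared between slides, limma called 0 of 18761 probes as well, with 77 at an unadjusted p below 0.05. None of the 77 was a probe of these other members. The PPP6C probes are not read here, since their fall between the siRNA groups chose the family. On slides 1 and 2 the siRNA difference was 0.33 and 0.48 for ANKRD52 and 0.33 and 0.22 for PPP6R3 on the log2 scale.

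Phosphatase genes around PP6 were then read from 5 lists, each gene at its brightest tested probe. Of 42 tested genes in these lists 4 were called, all lower with KHSRP siRNA, beside 6.19% of all tested genes (751 of 12125, 259 higher and 492 lower). The scaffold and B subunits of PP2A, which give that enzyme its specificity, had 15 of 17 genes tested and 0 called, with 3 at an unadjusted p below 0.05 in limma. Their log2 differences ran from -0.36 to 0.26 with a median of -0.06. The largest were those of the striatin STRN (-0.36, limma adjusted p = 0.333) and the B subunits PPP2R3C (-0.34, adjusted p = 0.159) and PPP2R5E (-0.32, adjusted p = 0.171). All 3 were called with the pair as a block, with limma adjusted p values of 0.0416, 0.0152 and 0.0461. That fit called 30.1% of all tested probes, so its calls in this list are only a description. The same fit called 2 genes of this list higher, the scaffold PPP2R1B (log2 difference 0.24, adjusted p = 0.0426) and the B subunit PPP2R2C (0.26, adjusted p = 0.0427), so that its calls in the list ran in both directions. STRN had 4 other tested probes, all lower with KHSRP siRNA, by -0.50 to -0.23. The dimmest was called without a block (-0.50, limma adjusted p = 0.0367). It was well above background on all 4 control arrays but on only 1 KHSRP siRNA array, and is not counted here.

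All 5 regulatory subunits of PP4 were tested and 0 were called, with 0 at an unadjusted p below 0.05 in limma and a median log2 difference of 0.08. The largest value belonged to PPP4R1, with levels of -1.40, -1.5, -1.94 and -1.60 on control arrays and 0.20, -1.47, -1.62 and -1.63 on KHSRP siRNA arrays. KHSRP siRNA array 1 alone was above the controls, and the log2 difference of 0.48 was 0.04 without it. PPP4R4 differed by -0.30 and PPP4R2 by -0.24 (limma adjusted p = 0.517 and 0.541).

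Among modifiers and inhibitors shared by these enzymes, 9 of 10 genes were tested and 0 called, with 1 at an unadjusted p below 0.05 in limma and a median log2 difference of -0.07. That one was ENSA, an endosulfine that inhibits PP2A in mitosis once phosphorylated. ENSA had levels of 2.35, 1.98, 2.16 and 2.19 with control siRNA and of 2.44, 2.46, 2.50 and 2.59 with KHSRP siRNA. The groups did not overlap (log2 difference 0.33, limma adjusted p = 0.147). With the pair as a block, a fit that called 30.1% of all tested probes, the limma adjusted p was 0.0393. However, a second ENSA probe for another transcript differed the other way, by -0.31 (limma adjusted p = 0.274). For ARPP19, in the same list, the brightest probe differed by 0.11 (limma adjusted p = 0.737). A dimmer ARPP19 probe was higher by 0.49 without overlap between groups, but was not called (limma adjusted p = 0.0854). The PP2A inhibitor ANP32A and IGBP1, which holds free catalytic subunits of PP2A, PP4 and PP6, differed by -0.22 and -0.18 (limma adjusted p = 0.733 and 0.595). CIP2A was not tested.

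Of the 9 other catalytic subunits of the same enzyme superfamily, 7 were tested and 1 was called. PPP3CB, a catalytic subunit of the calcium-dependent phosphatase calcineurin, had levels of 1.32, 1.74, 1.19 and 1.89 on control arrays and 0.16, 0.44, 0.74 and -0.16 on KHSRP siRNA arrays. The groups did not overlap, and PPP3CB fell by 1.24 on the log2 scale (SE 0.23, limma adjusted p = 0.0193). The call was lost without control array 2 or KHSRP siRNA array 1, where the highest adjusted p was 0.0632. Over 21 alternatives it was lost in 4, with the highest adjusted p of 0.125 for the scanner file numbers as a block. A second probe for PPP3CB was also lower, but it was well above background on all 4 control arrays and on only 1 KHSRP siRNA array and so entered testing through the controls. Its measured log2 difference of -2.02 became -0.53 with normexp background correction and is not counted here. Its sister subunit PPP3CA had levels of 0.95, 1.37, 0.96 and 1.87 with control siRNA and of 1.67, 2.0, 2.59 and 1.71 with KHSRP siRNA, a log2 difference of 0.71 (SE 0.27, limma adjusted p = 0.192) that was called only with the pair as a block (adjusted p = 0.00214). That block fit called 30.1% of all tested probes. The differences of PPP3CB and PPP3CA thus had opposite signs, although only that of PPP3CB was called without a block. PPP5C differed by -0.23 (limma adjusted p = 0.526), and the list as a whole had a median of -0.11.

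The list of PP6 substrates and partners held the other 3 calls. All 6 genes were tested and all had negative log2 differences, with a median of -0.48, beside 50.9% of all tested genes above 0 and a median over genes of 0.01. The list was chosen with earlier results of these data known, so its common direction is a description. AURKA, the Aurora A kinase that PP6 dephosphorylates, had levels of 3.77, 3.51, 3.80 and 3.12 with control siRNA and of 2.59, 2.38, 2.16 and 2.50 with KHSRP siRNA. The groups did not overlap, and AURKA fell by 1.14 on the log2 scale (SE 0.18, limma adjusted p = 0.00958), to 45.3% of the control level. TPX2, the spindle protein that activates Aurora A, had levels of 4.03, 4.06, 4.16 and 3.84 with control siRNA and of 3.50, 3.28, 3.37 and 3.45 with KHSRP siRNA. It fell by 0.62 on the log2 scale (SE 0.11, limma adjusted p = 0.0165) without overlap between groups. TPX2 was called in 5 of the 8 fits that leave out 1 array. The exceptions were those without control array 1, control array 2 or KHSRP siRNA array 2 (highest adjusted p 0.0615). Over 21 alternatives its call was lost in 6, with a highest adjusted p of 0.112.

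NCAPG, a subunit of the condensin I complex that compacts mitotic chromosomes, had levels of -0.25, -0.29, -0.13 and 0.04 on control arrays and of -1.87, -1.73, -1.06 and -1.43 on KHSRP siRNA arrays. It fell by 1.37 on the log2 scale (SE 0.19, limma adjusted p = 0.00549) without overlap. With normexp background correction its log2 difference was -0.70, and it was still called. AURKA and NCAPG were called in all 8 fits that leave out 1 array. The 3 called genes are also known as mitotic genes whose mRNA is high in dividing cells. The remaining members differed by -0.33 for the histone H2AX, by -0.10 for the DNA repair kinase PRKDC and by -0.07 for the NF-kappaB inhibitor NFKBIE (limma adjusted p = 0.371, 0.874 and 0.845). H2AX was called with the pair as a block (adjusted p = 0.0174). That fit called 13 of the 42 genes of the 5 lists, 4 higher and 9 lower, close to its share of 30.1% over all tested probes.

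**Figure D4:**
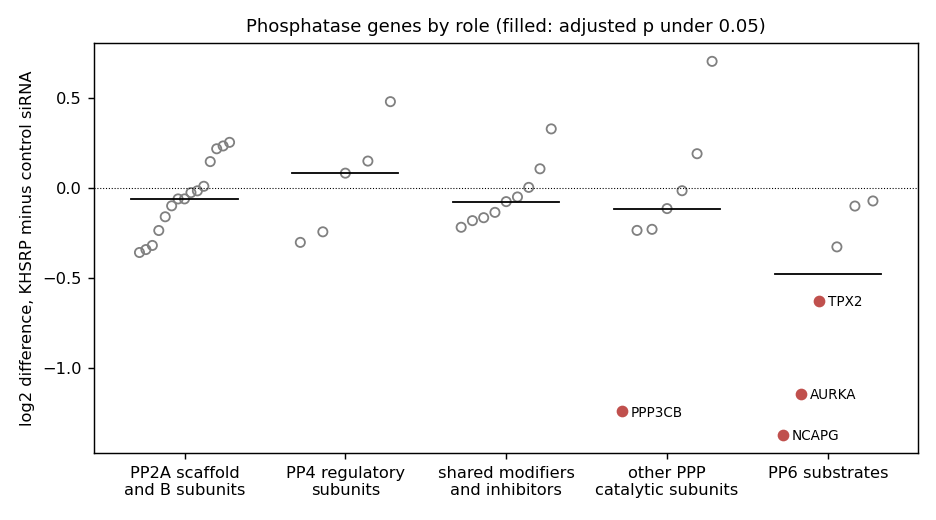
Log2 difference of KHSRP siRNA minus control siRNA (y axis) for the tested genes of 5 lists, 1 point per gene at its brightest tested probe, with black lines for the list medians. Filled red points are the 4 genes called by limma, PPP3CB at -1.24 and the PP6 substrate list's AURKA, TPX2 and NCAPG at -1.14, -0.62 and -1.37, and open grey points are the genes not called.

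The genes next to PPP6C on chromosome 9 were not used in the choice of the family. Both neighbours on the side of higher coordinates were lower with KHSRP siRNA. RABEPK, a partner of the small GTPase Rab9 in transport from endosomes, had levels of 3.81, 3.97, 3.97 and 3.87 on control arrays and of 2.90, 2.62, 3.10 and 2.84 on KHSRP siRNA arrays, and fell by 1.04 on the log2 scale (SE 0.13, limma adjusted p = 0.00353). HSPA5, the endoplasmic reticulum chaperone BiP, had levels of 3.80, 4.07, 4.01 and 3.97 with control siRNA and of 3.09, 3.13, 3.22 and 3.41 with KHSRP siRNA, and fell by 0.75 (SE 0.12, limma adjusted p = 0.0102). Neither gene had overlapping groups, and both were called in all 8 fits that leave out 1 array.

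On the other side no neighbour was called. SCAI, a repressor of invasive cell migration, had levels of -0.23, 0.25, -0.04 and 0.67 with control siRNA and of 0.03, 0.27, 0.60 and -0.16 with KHSRP siRNA, which overlapped fully (log2 difference 0.02, 95% interval -0.51 to 0.55, limma adjusted p = 0.980). GOLGA1, a golgin of the trans-Golgi network, differed by 0.31 (SE 0.12, limma adjusted p = 0.206), with no overlap between -0.56 to -0.43 on control arrays and -0.41 to 0.00 on KHSRP siRNA arrays. Whether the difference at PPP6C and those of its neighbours were related was not tested.

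**Figure D5:**
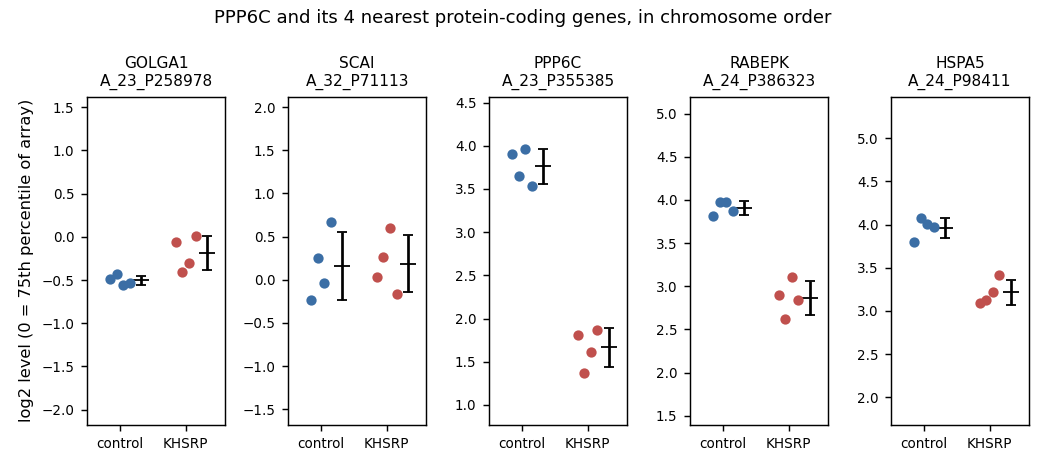
Log2 level (0 is the 75th percentile of the array) on each of the 8 arrays for PPP6C and the 2 nearest protein-coding genes with a tested probe on each side, in chromosome order from left to right, with blue points for control siRNA, red points for KHSRP siRNA and black bars for the mean ± SD (n = 4). PPP6C, RABEPK and HSPA5 have separate groups with KHSRP siRNA lower, SCAI overlaps, and GOLGA1, which was not called, lies at -0.56 to -0.43 with control siRNA and -0.41 to 0.00 with KHSRP siRNA.

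The 5 genes whose levels followed the brighter PPP6C probe most closely over the 8 arrays were KPNA4, CDKN3, RAB28, SNHG9 and XIAP, with Pearson correlations of 0.992 to 0.996. Because the arrays form 2 groups that differ in PPP6C, these values are high for any gene that is lower with KHSRP siRNA and varies little within groups, and they are given as a description. RAB28, a small GTPase, had levels of 2.19, 2.15, 2.41 and 1.96 on control arrays and of 0.55, 0.50, 0.43 and 0.66 on KHSRP siRNA arrays, which is 32% of the control level. KPNA4, an importin alpha, was at 38.8% of the control level, and CDKN3, a phosphatase that acts on cyclin-dependent kinases, at 46.6%. XIAP, an inhibitor of caspases, was at 54.6%, and the noncoding small nucleolar RNA host gene SNHG9 at 63.0%.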

How the data were processed

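RNA of 8 KYSE850 samples was hybridised to 1-colour Agilent arrays, and samples were grouped by their labels. The authors scanned the arrays with Agilent Feature Extraction (11.5.1.1 per the file headers, 12.6 per the submitters' notes), and the deposited values are linear fluorescence intensity, background-subtracted and detrended within the array. The authors also deposited a matrix of log2 values, used as an alternative. Control and outlier spots were left out, intensities were log2-transformed, averaged per probe and shifted to each array's 75th percentile. Testing was limited to probes for which, on all 4 arrays of 1 group, a share of 0.5 or more of the spots exceeded background by the scanner's criterion. Symbols came from RefSeq accessions (GRCh38.p14 annotation, 64.2% of probes). Coordinates are not given because the array design uses another build. Differences between groups came from limma 3.58.1 run in R 4.3.3 (no block, two-sided, Benjamini-Hochberg over 18761 probes). The number of arrays limits precision. Summaries were made in Python 3.11.15. The fit was also run on simulated data with independent noise on each array. Those data lack the deviations shared between arrays here, so they do not show how the fit behaves under them.

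The members and lists were chosen with earlier results of these data known. Single genes named were KHSRP, all member probes, in each list the called genes and up to 3 with the largest difference, the 5 genes most correlated with PPP6C and the 2 nearest protein-coding genes on each side. PPP2R1B, PPP2R2C, ARPP19, the further probes of STRN and the second probes of ENSA and PPP3CB were named after their values were seen. For a probe at background in 1 group, the fold value compared the other group's mean with the lowest detected probe of each array. That probe is not a detection limit, since some brighter probes were not detected.

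Arrays of the same number deviated together from their group means under the numbers of the deposited matrix (correlations of 0.43 to 0.84, 4 of 4 pairs over 0.1). Under those of the scanner files this held for 2 of 4 pairs (-0.67 to 0.52), so the matrix numbers were taken as pairs. This choice used the same expression values that the block then tested, and each control array also correlated with a KHSRP siRNA array that was not its partner. Alternatives covered scaling, normexp, the matrix values, the filter, blocks, variance models, the methods' per-gene test and leaving out each array.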

Additional observations from a re-analysis of the deposited data

Results flagged for a closer look

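In 2 of 20 groups of 4 arrays examined for the KHSRP probes and the tested member probes, 1 array stood apart from the other 3 by Dixon's criterion, which chance meets in about 1 of 20 groups. For ANKRD28 it was KHSRP siRNA array 2, whose level of -0.37 was followed by 0.44, a gap of 0.847 of the group's range. For the dimmer KHSRP probe (A_24_P134235) it was control array 2, with a level of -1.86 followed by -1.10, a gap of 0.832 of the range.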

How the results depend on the processing

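Each member was compared under 17 to 21 alternatives. PPP6C was lower in all of them, by -2.17 to -1.91 at the brighter probe and by -3.05 to -0.72 at the dimmer one, where normexp gave -0.72. The count of related member probes called was 0 throughout, including every fit without 1 array (0 to 0), except for 1 (ANKRD52) with the replicate block of matrix numbers. The 4 list genes called became 2 without the filter on dim probes, 1 with the replicate block of scanner numbers, 13 with that of matrix numbers, and 2 to 4 without 1 array, with 2 without control array 2. SCAI, near 0, changed sign to -0.051 with median scaling and ranged from -0.12 to 0.19 without 1 array. Over all probes, 1039 calls became 570 with median scaling, which moved the median of all probes to -0.06, 319 without the filter, 156 and 5644 with the replicate blocks of scanner and matrix numbers, and 489 to 766 without 1 array. Both numberings gave the same pairs for arrays 1 and 2. Under the scanner numbers, the deviations of pairs 3 and 4 correlated at -0.67 and -0.64. With the scanner numbers as the block, limma adjusted p values for AURKA, TPX2, PPP3CB, RABEPK and HSPA5 were 0.0787, 0.109, 0.125, 0.0534 and 0.0719. The causes of these shifts were not tested. Dim probes, PPP6R1 and ANKRD44 among them, allowed no difference to be read.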
